A study of Mus musculus with 12 samples.

Results

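The laminins, the nidogens and perlecan are the non-collagen scaffold of the basement membrane, the sheet of matrix that mammary epithelium, muscle, fat, nerve and vessel cells rest on. The genes described here are the laminin chains Lama2, Lama4, Lama5, Lamb1, Lamb2, Lamb3 and Lamc1, the nidogens Nid1 and Nid2, and the perlecan gene Hspg2, 10 of the 18194 genes that the platform tables pair with a probe set of their own. Each was followed through every probe set that the platform tables pair with that gene alone. These were 20 probe sets, 17 on the chip MOE430A and 3 on MOE430B, of 45265 on both chips.

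The arrays compared mouse mammospheres, floating clusters of mammary gland cells, in an undifferentiated state with cells of differentiated mammospheres. Undifferentiated mammospheres were at passage 3 in DMEM and F12 medium with B-27, basic fibroblast growth factor, epidermal growth factor and heparin, and their purity was put at 90% by the submitters, with 10% myoepithelial cells as the contaminant. Differentiated cells came from such cultures after 6 days on dishes coated with collagen, where the medium was DMEM rich in glucose and held 5% serum from fetal calves, and were estimated as 50% myoepithelial and 50% luminal. The labels give no strain, age or genotype for either state. There were 3 RNA samples a state, with the numbers 1, 2 and 4, and both chips were run for each, giving 12 arrays. Nothing in the labels ties the 3 samples to different cultures or animals, so p-values measure the spread between RNA samples, which may be technical. Serum, attachment, heparin and growth factors changed together with the state, as did the fluidics station that processed the arrays, and their parts cannot be told apart.

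A laminin is a trimer of an alpha, a beta and a gamma chain, coiled together and secreted as a cross. The alpha chain carries the sites that integrins and dystroglycan hold, so the alpha chain in use decides which cells can grip the sheet and how. Nidogens tie the gamma chain of laminin to the collagen IV network, and perlecan adds long heparan sulfate chains that store fibroblast growth factors. In the mammary gland, myoepithelial cells lay down much of the laminin beneath the ducts, and a laminin that holds the Lama3 and Lamb3 chains anchors epithelium through the integrin of the alpha 6 and beta 4 chains. Lama2 is the alpha chain of the sheath of muscle and peripheral nerve, and Lama4 that of vessels, fat and other mesenchymal tissue.

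The labelled cell types were set against their defining markers, a marker counting as above background when all 3 samples of a state lay over the background of their arrays, which is the highest signal of the bacterial trpn control probe sets (515.5 to 829.9 on MOE430A and 1674 to 2995 on MOE430B). Of 8 myoepithelial and basal markers, 7 were above it in neither state, among them Krt5, Krt14 and Trp63. The other was Acta2, an actin made by contractile cells such as smooth muscle and myoepithelium, which read 5507, 5374 and 5860.4 undifferentiated and 43876, 54025 and 52230 differentiated. Every differentiated sample was far above every undifferentiated one, and the log2 change was 3.14 (adjusted p = 2.9e-05, limma), or 1.96 with hybridisation control scaling. Cnn1, a calponin of smooth muscle and myoepithelium, also rose, by 1.98 (adjusted p = 0.0171, limma), with 2 of 3 differentiated samples above background. Cnn1 was not among the markers tested with hybridisation control scaling. The summed myoepithelial signal went from between 7009.8 and 7298 to between 45686 and 56837, and without Acta2 from between 1149 and 1790.7 to between 1810.5 and 2921. Of 9 luminal markers on the chips, 7 were above background in neither state. Their summed signal ran from 2198 to 3726 undifferentiated and from 2021 to 2558 differentiated, which overlap. Of 4 luminal markers tested 0 rose and 0 fell, and with hybridisation control scaling 0 rose and 2 fell. All 8 fibroblast markers were above background in both states. The cells are called by state below, since the share of each cell type was not measured. In total RNA, fewer cells of a type and less RNA per cell cannot be told apart.

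The deposited arrays of a chip share one trimmed mean, so a change below is a change relative to the bulk of the chip. The hybridisation controls, labelled control transcripts that the array protocol adds at the hybridisation step, read 1.44-fold to 2.88-fold higher on the differentiated MOE430A arrays than the undifferentiated mean. Scaling the arrays on these controls in place of the trimmed mean moved the median log2 change of all tested MOE430A probe sets from 0.03 to -1.07. Signed values under that scaling are given where the direction of a member or of a named gene that was called turns, for some members with the distance from the chip median. The poly-A controls, a second set of control transcripts, read 0.85-fold to 1.10-fold undifferentiated and 0.82-fold to 1.14-fold differentiated on MOE430A, against the undifferentiated mean. Scaling on these put the MOE430A median at 0.05. No tested member then changed sign, and 4 member probe sets were called beside 7. Samples of a state correlated at 0.985 to 0.992 on MOE430A and samples of different states at 0.854 to 0.880, over probe sets and on the linear scale.

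The start regions of Hspg2, called higher in the differentiated samples relative to the bulk of the chip, and of Lama2, the 1 member called lower, are shown first as a pair of opposite direction. RefSeq entries (GRCm38.p6) of 300 bases, 250 before the start and 50 after it, were matched by symbol for 7 of the 10 genes, not for Lama4, Lamc1 and Nid2. The Hspg2 window is chr4:137468553-137468852 on the plus strand, the Lama2 window chr10:27616893-27617192 on the minus strand, and capitals mark GGGCGG, the core of a GC box, read on both strands.
Hspg2: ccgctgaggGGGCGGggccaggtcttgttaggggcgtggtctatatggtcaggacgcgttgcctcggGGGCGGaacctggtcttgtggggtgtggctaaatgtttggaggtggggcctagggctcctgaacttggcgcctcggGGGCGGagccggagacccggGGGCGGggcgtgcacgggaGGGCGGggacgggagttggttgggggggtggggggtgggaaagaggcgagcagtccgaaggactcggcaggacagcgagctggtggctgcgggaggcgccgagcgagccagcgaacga
Lama2: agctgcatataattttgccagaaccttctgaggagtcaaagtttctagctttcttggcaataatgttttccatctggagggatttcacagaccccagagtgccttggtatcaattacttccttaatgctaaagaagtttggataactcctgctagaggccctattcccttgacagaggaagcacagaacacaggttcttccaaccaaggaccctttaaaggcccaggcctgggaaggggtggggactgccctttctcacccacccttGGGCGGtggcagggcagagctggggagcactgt
The Hspg2 window held GGGCGG 5 times, 27 CpG dinucleotides and 70.3% G and C. The Lama2 window held GGGCGG 1 time, 1 CpG and 50.3% G and C. Lama5 and Nid1, which did not pass, held GGGCGG 4 times and 1 time, with 24 and 20 CpG. Lamb1 held it 2 times, with 18 CpG. Lamb2 held it 0 times, with 4 CpG, and the Lamb3 entries 0 times, with 2 and 5 CpG. Whether such counts go with the direction of change was not tested. Over all 32851 windows of this length, 35.7% held GGGCGG at least 1 time and 2.71% at least 5 times, and the median window had 7 CpG and 52.7% G and C. TGANTCA, the site of AP-1 (both strands read alike), and TATAAA on either strand were in none of the 7 genes' windows, against 7.81% and 13.6% of all windows. These are counts of letters in a window and carry no statement about which factors act there.

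Of the 20 probe sets, 17 had a mean signal of at least 20% of the chip's trimmed mean and were tested, 16 on MOE430A and 1 on MOE430B. Of the 16 tested on MOE430A, 6 rose and 1 fell in the differentiated samples at an adjusted p under 0.05 (limma, Benjamini-Hochberg over the chip), where 28.5% of all tested probe sets of that chip were called, 14.1% higher and 14.4% lower. The risers were both probe sets of Lama4 and of Hspg2 and 1 each of Lamc1 and Lamb1, and the faller was Lama2. The states did not overlap for 9 of the 16, 7 higher and 2 lower, where 47.7% of the chip's probe sets did not (24.1% higher, 23.5% lower). The median log2 change of the 17 was 0.36, with a range from -1.04 to 1.75. Taking 1 probe set for each gene, the tested one of highest mean signal, Lama4 and Hspg2 rose, Lama2 fell and 6 of 9 genes did not pass, against 28.1% of all genes so counted on MOE430A that were called (14.2% higher, 13.9% lower). On MOE430B the tested probe set did not pass, where 1.83% were called. When scaled on the hybridisation controls the probe set count was 0 risen and 6 fallen. Lama4 was the highest and Lama2 the lowest of the 17 under each of the scalings tried. Scaling on controls uses 1 factor an array and moves the log2 changes of a chip nearly alike. It could hardly alter this order, which is given as a description.

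**Figure D1:**
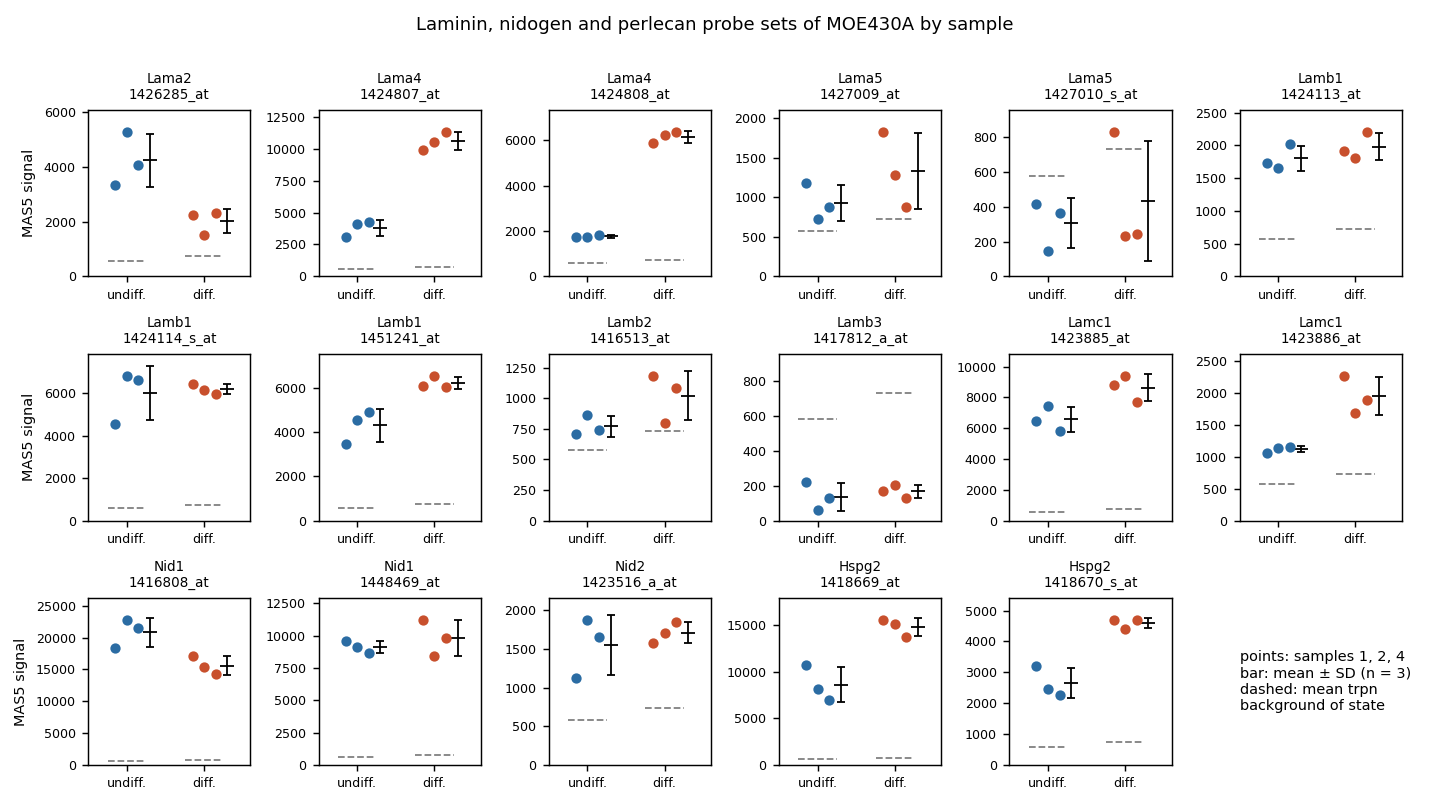
MAS5 signal (linear axis from 0) of the 17 MOE430A probe sets in undifferentiated (blue) and differentiated (red) samples 1, 2 and 4; the black bar is the mean ± SD (n = 3) and the dashed line the mean trpn background of the state. The Lama4 and Hspg2 panels show every differentiated sample above every undifferentiated one, the Lama2 panel the reverse, and Lamb3 lies below background throughout; the sign of the Hspg2 change turns when the arrays are scaled on the hybridisation controls.

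Lama4 encodes the alpha 4 chain, a short laminin arm typical of vessel walls and adipose tissue, and it had the highest rise among the members. Its brighter probe set, 1424807_at, read 3098, 4069.9 and 4282 in undifferentiated samples 1, 2 and 4 and 9914, 10482 and 11324 in differentiated samples 1, 2 and 4. Every differentiated sample was above every undifferentiated one, and the spread within a state was small beside that gap. The state means were 3816 ± 631 and 10573 ± 709 (SD, n = 3), a 2.79-fold ratio of geometric means. limma put the log2 change at 1.46 ± 0.16 (SE), with a 95% interval of 1.09 to 1.84 and an adjusted p of 0.000849. The second probe set, 1424808_at, read 1748, 1730.1 and 1845 undifferentiated and 5870.2, 6208 and 6377 differentiated. Its groups were again far apart, with a log2 change of 1.75 ± 0.11 (adjusted p = 9.88e-05, limma). Of the tested probe sets on the chip, 97.4% and 98.1% had a lower change than these 2. Scaled on the hybridisation controls, both Lama4 values stayed above 0, at 0.29 and 0.59, but neither passed in limma (adjusted p = 0.49 and 0.161). They then lay 1.36 and 1.66 above the chip median.

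Lama2 encodes the alpha 2 chain of merosin, the laminin that dystroglycan holds on muscle fibres and Schwann cells, and it was the 1 member called lower. Its only probe set, 1426285_at, read 3334, 5277 and 4069.7 in the undifferentiated samples and 2234, 1508 and 2316 in the differentiated ones. The lowest undifferentiated sample stood above the highest differentiated one, and undifferentiated sample 2 and differentiated sample 2 were the extremes. The means were 4227 ± 981 and 2019 ± 445 (SD, n = 3), 2.09-fold higher undifferentiated. The log2 change was -1.04 ± 0.23 (SE), with a 95% interval of -1.58 to -0.50 and an adjusted p of 0.0161 in limma. It missed the threshold when undifferentiated sample 2 or undifferentiated sample 4 was left out, with log2 changes of -0.87 and -1.05 and adjusted p-values of 0.0513 and 0.0529. The sign was the same under every scaling tried. These scalings put the chip median between -1.07 and 0.05, so none moved the bulk of the chip upward enough to turn a fall of this size. Of the chip's probe sets, 5.85% had a lower change.

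Lama5 encodes the alpha 5 chain, the broad laminin of adult epithelia and vessels. Its brighter probe set, 1427009_at, read 1177, 729 and 878 undifferentiated and 1829.8, 1282 and 877 differentiated. Differentiated sample 4 lay among the undifferentiated values, so the states overlapped, and the change of 0.45 ± 0.28 did not pass (adjusted p = 0.262, limma) and was -0.65 with hybridisation control scaling. The other MOE430A probe set, 1427010_s_at, was under background in every sample except differentiated sample 1, and its change of 0.30, which did not pass, was -0.66 with that scaling. The MOE430B probe set was under background in all 6 samples and was not tested.

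The beta chains gave smaller log2 changes. Lamb1 encodes the beta 1 chain, which pairs with most alpha chains outside the epithelial anchoring laminin, and its 4 tested probe sets did not share 1 call. The brightest, 1424114_s_at, read 4567, 6825 and 6643 undifferentiated and 6435, 6137 and 5976 differentiated. All 3 differentiated samples lay inside the undifferentiated range, and the log2 change was 0.06 ± 0.18 (adjusted p = 0.82, limma), with a 95% interval of -0.36 to 0.48, and -1.11 with hybridisation control scaling. By contrast 1451241_at read 3453, 4564 and 4899 against 6104, 6552 and 6032. Its states did not overlap, and it rose by 0.54 ± 0.16 on the log2 scale (adjusted p = 0.0435, limma), a call that was lost whichever 1 of the 6 samples was left out and whose sign turned to -0.63 with hybridisation control scaling. The other 2, 1424113_at and the MOE430B probe set 1446180_at, had log2 changes of 0.13 ± 0.14 and 0.12 ± 0.35 that did not pass (-1.01 and -0.80 with that scaling), and the last was under background in all samples. Whether the Lamb1 probe sets read different transcripts was not tested.

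Lamb2, the beta 2 chain of nerve terminals, kidney and vessel walls, read 706, 866 and 739 undifferentiated and 1183, 795 and 1082 differentiated. Differentiated sample 2 lay within the undifferentiated range, and the change of 0.36 ± 0.17 did not pass (adjusted p = 0.162, limma) and was -0.73 with hybridisation control scaling. Lamb3, a chain of the laminin that anchors keratinocytes and mammary epithelium, ran from 60.4 to 220.3 in the undifferentiated and 129 to 204 in the differentiated samples. All 6 values were under the trpn background of their arrays, so no change in Lamb3 could be measured.

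Lamc1 encodes the gamma 1 chain, the partner shared by nearly all laminins outside the anchoring one and the chain that nidogen binds. Its brighter probe set, 1423885_at, read 6442, 7451 and 5839 undifferentiated and 8809.6, 9407 and 7675 differentiated. The states did not overlap, though the margin was small, and the change of 0.39 ± 0.15 did not pass (adjusted p = 0.0892, limma) and was -0.79 with hybridisation control scaling. The dimmer 1423886_at read 1068, 1134 and 1158 against 2276, 1689 and 1901. Here every differentiated sample was clearly higher, and limma gave a log2 rise of 0.76 ± 0.14 (adjusted p = 0.00932) that turned to -0.37 when scaled on the hybridisation controls, 0.70 above the chip median. The rise also passed without each single sample. Without differentiated samples 1 and 4, the arrays of highest hybridisation controls, 1 differentiated sample was left and the change was 0.56, which did not pass.

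Neither nidogen passed the test as reported. Nid1, the main linker between laminin and collagen IV, read 18321, 22789 and 21451 undifferentiated and 17157, 15311 and 14312 differentiated on 1416808_at. All 3 differentiated samples were below the lowest undifferentiated one, but the change of -0.42 ± 0.14 missed the threshold (adjusted p = 0.0663, limma; 95% interval -0.75 to -0.08). It passed as lower under 6 of 19 alternatives, among them quantile normalization (-0.51, adjusted p = 0.0325), a trend and robust prior (adjusted p = 0.016) and hybridisation control scaling (-1.60, adjusted p = 0.000302). The second Nid1 probe set, 1448469_at, read 9598, 9139.7 and 8629 against 11227, 8449.6 and 9794. Differentiated samples lay on both sides of the undifferentiated ones, at a log2 change of 0.10 ± 0.14 (adjusted p = 0.641), so Nid1 was the 1 gene whose tested probe sets differed in sign; with hybridisation control scaling this one was also below 0, at -1.08. Nid2, a second nidogen with overlapping function, read 1126, 1878 and 1659 undifferentiated and 1579, 1712 and 1848 differentiated. The differentiated samples lay within the undifferentiated range and the change was 0.16 ± 0.20 (adjusted p = 0.573, limma), or -0.97 with hybridisation control scaling.

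Hspg2 encodes perlecan, whose heparan sulfate chains bind fibroblast growth factors and whose core holds laminin, nidogen and dystroglycan. The probe set 1418669_at read 10663, 8103 and 6971 in the undifferentiated samples and 15548, 15099.7 and 13726 in the differentiated ones. Undifferentiated sample 1 was the highest of its state and still below every differentiated sample. The means were 8579 ± 1891 and 14791 ± 949 (SD, n = 3), a ratio of 1.75, and the log2 change was 0.80 ± 0.18 (SE), with a 95% interval of 0.38 to 1.22 and an adjusted p of 0.0163 in limma. The second probe set, 1418670_s_at, read 3215, 2463 and 2270.1 against 4684, 4395 and 4699.6. It showed the same order, with undifferentiated sample 1 nearest to the differentiated ones, and a log2 change of 0.79 ± 0.16 (adjusted p = 0.0109, limma). Both turned sign with hybridisation control scaling, to -0.38 and -0.37, while lying 0.69 and 0.70 above the chip median, and with poly-A control scaling the changes of 0.82 and 0.81 no longer passed (adjusted p = 0.0615 and 0.0553). The 1418669_at call was also lost without undifferentiated sample 2 or 4 (0.77 and 0.66, adjusted p = 0.0574 and 0.0532, limma). Without differentiated samples 1 and 4 together, which left 1 differentiated sample, the changes were 0.83 and 0.73 and neither passed.

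**Figure D2:**
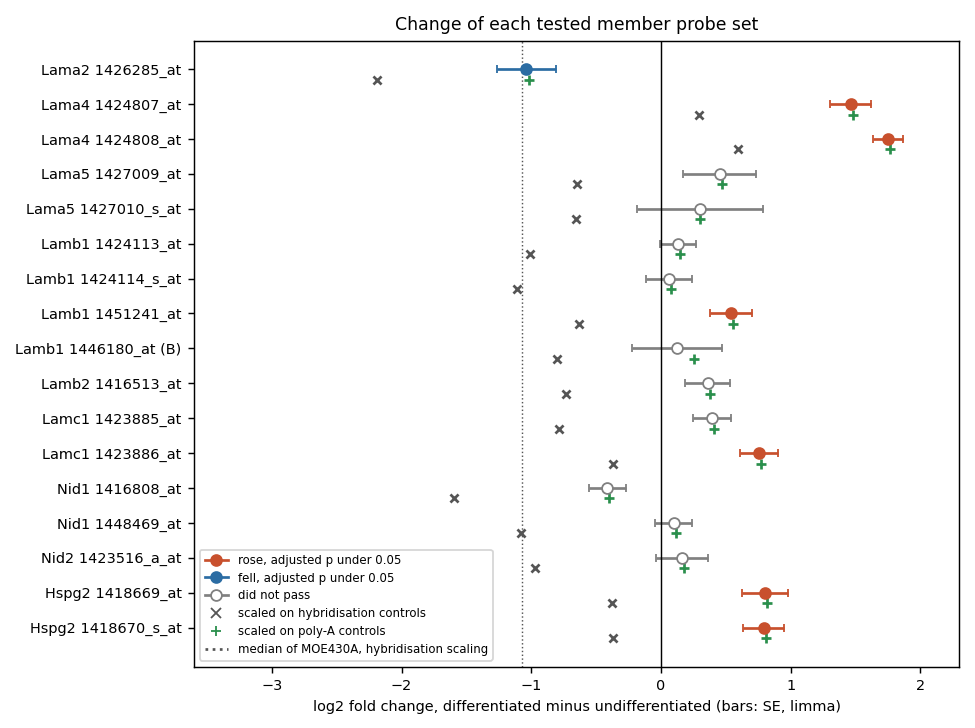
Log2 fold change, differentiated minus undifferentiated, of the 17 tested probe sets (circles, bars are limma's SE, n = 3 a state; filled where the adjusted p was under 0.05); crosses give the value after scaling on the hybridisation controls, plus signs on the poly-A controls, and the dotted line the chip median under the former. Lama4 is highest and Lama2 lowest under each scaling, while the crosses of Hspg2, Lamc1 and Lamb1 lie below 0.

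Scaling an array by 1 factor acts on all its probe sets alike. The ratio of 2 members on the same array does not depend on such scaling, apart from the small offset added before log2. Quantile normalization is not of this kind and can move the ratio. A shift of the ratio between states shows unequal change. Each gene was taken by its brightest tested probe set, 7 pairs were compared, and with 3 samples against 3 the exact two-sided permutation test cannot give a p under 0.1, or 0.117 after Benjamini-Hochberg adjustment over the pairs. The log2 ratio of the vascular chain Lama4 to the muscle chain Lama2 was -0.10, -0.37 and 0.07 in undifferentiated samples 1, 2 and 4 and 2.11, 2.74 and 2.25 in the differentiated ones. The shift was 2.50, or 5.66-fold. This pair joins the members of highest and lowest change, so a wide shift follows from that choice and is given as a description.

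The 3 chains that can assemble into 1 trimer, Lama4, Lamb1 and Lamc1, were compared with each other in the same way. Lama4 had the highest rise of the members, so its upward shifts restate that rise. Lama4 shifted upward against Lamb1 by 1.40, its ratio running from -0.74 to -0.55 undifferentiated and from 0.62 to 0.91 differentiated, and against Lamc1 by 1.07, in both cases with no overlap (exact p = 0.1 each). The ratio of Lamc1 to Lamb1 shifted by 0.33 with overlapping states (exact p = 0.3). With the Lamb1 probe set 1451241_at the shift of Lama4 was 0.92, still without overlap, and that of Lamc1 was -0.15, with overlap. With the Lamc1 probe set 1423886_at Lama4 shifted by 0.71, again without overlap.

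The ratios of Hspg2 to the linker Nid1 and to the alpha chain Lama2 were both higher in every differentiated sample. Hspg2 had been called higher, Lama2 called lower, and Nid1 1416808_at had a change of -0.42. Wide shifts follow from that choice of pairs and are given as a description. Its log2 ratio to Nid1 was -0.78, -1.48 and -1.61 in the undifferentiated and -0.14, -0.02 and -0.06 in the differentiated samples, a shift of 1.22 or 2.32-fold (exact p = 0.1). The differentiated samples were tightly grouped, and undifferentiated sample 1 lay nearest to them. Against Lama2 the shift was 1.84, and that of Nid2 against Nid1 was 0.58, both without overlap (exact p = 0.1). The Nid1 probe set matters here. With 1448469_at the shift of Hspg2 was 0.70, without overlap, and that of Nid2 was 0.06, with overlapping states.

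**Figure D3:**
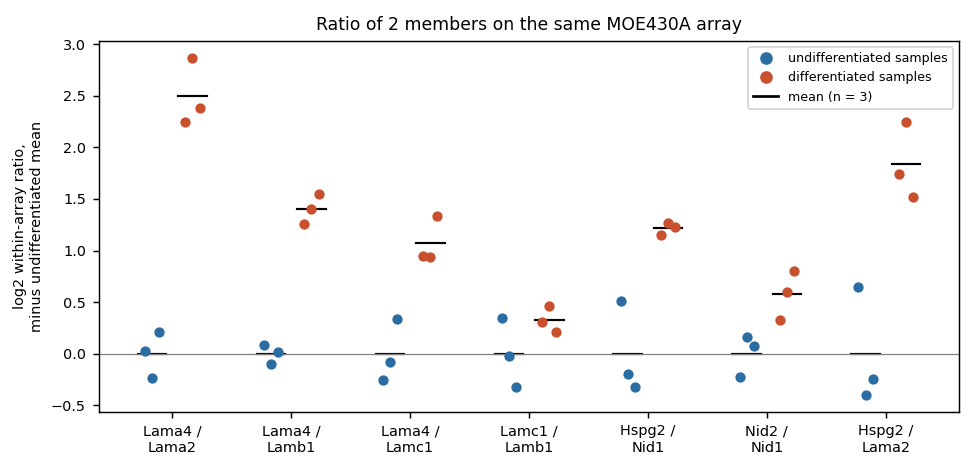
Log2 ratio of 2 members on the same MOE430A array, less the undifferentiated mean of that pair (y axis), for undifferentiated (blue) and differentiated (red) samples, with the mean of each state (n = 3) as a black line. The Lama4 to Lama2 pair, which joins the members of highest and lowest change, is displaced by 2.50, and Lamc1 to Lamb1 is the only pair of the 7 whose states overlap.

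Laminin chains outside the members were looked for on both chips. Lama1, Lama3 and Lamc3 were above background in all 3 samples of neither state, and 0 of the 2 that could be tested passed in limma. Lama3 and Lamb3, of the epithelial anchoring laminin, were thus not measurable here.

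Receptors that hold the laminin arms were taken as a list of 13 genes, 12 of them tested. Of these 3 rose, 2 fell and 7 did not pass, beside 28.1% of genes called on MOE430A (14.2% higher, 13.9% lower). Over both chips, from which the lists were drawn, 18.5% of genes were called. Dag1, the dystroglycan that binds laminin alpha chains and perlecan, read 3888, 4105 and 4087 undifferentiated and 7702, 6864 and 6407 differentiated. The states did not overlap, and the log2 rise was 0.78 ± 0.12 (adjusted p = 0.00465, limma), turning to -0.39 with hybridisation control scaling. Itga6, the integrin alpha 6 chain of epithelial, endothelial and stem cell laminin receptors, read 1959, 1974 and 1955 against 28.0, 57.5 and 156. The differentiated values were all under background, so Itga6 fell by a factor of at least 2.70 (adjusted p = 0.000166, limma). Itga1, the alpha 1 chain of a receptor for collagen IV and laminin, also fell to below background on MOE430B, at least 2.2-fold lower (adjusted p = 0.04, limma), a call that was lost whichever 1 of the 6 samples was left out (adjusted p up to 0.149). Rpsa, a ribosomal protein also described as a laminin receptor, rose by 0.72 ± 0.15 (adjusted p = 0.0135, limma), a rise that quantile normalization took to 0.38 with no call (adjusted p = 0.0754) and that turned to -0.46 with hybridisation control scaling. Processed copies of Rpsa are known, and whether its probe set reads them was not tested. Ddr1, a collagen receptor named here after its values were seen, was the third to rise, by 0.43 on the log2 scale (adjusted p = 0.04, limma), also lost whichever sample was left out and turning to -0.71 with hybridisation control scaling. Itgb1, the beta chain shared by most laminin integrins, had a log2 change of 0.31 that did not pass (adjusted p = 0.107, limma), and was likewise chosen afterwards. Without differentiated samples 1 and 4, which left 1 differentiated sample, the list's median log2 change was 0.34, beside 0.26 with all samples. With hybridisation control scaling the list had no rise and 6 falls.

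Of 25 other basement membrane and linker genes tested, 6 rose, 6 fell and 13 did not pass. The shares of all genes called were the same 28.1% on MOE430A, near equal in both directions, and 18.5% over both chips. The list's median log2 change was 0.07 beside 0.05 for all genes on MOE430A. Col4a5, a minor collagen IV chain, rose from 648, 642 and 440.4 to 2262, 2809 and 2298, a log2 change of 1.97 ± 0.18 (adjusted p = 0.000402, limma). Egfl6, an integrin-binding matrix protein, was under background in all undifferentiated samples and reached 646, 1459 and 1643 (adjusted p = 0.000318), with 2 of 3 above background. On the falling side, Frem1, a linker of the epithelial basement membrane to the dermis, went from 25965, 43287 and 39016 to below background on MOE430B, at least 14.8-fold lower (adjusted p = 0.00228, limma). The Frem1 call was lost without differentiated samples 1 and 4 together, which left 1 differentiated sample. Col18a1, the collagen whose end fragment is endostatin, fell from 9576, 14376 and 13359 to 2799, 2489 and 2756, by 2.16 on the log2 scale (adjusted p = 0.000256). With hybridisation control scaling Col4a5 and Egfl6 stayed above 0, at 0.86 and 3.17. Frem1 and Col18a1 stayed below 0, but that scaling moves the bulk of both chips down and could hardly turn a fall.

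The collagen IV network that nidogen ties to laminin is built mainly of Col4a1 and Col4a2, named here after their values were seen. Col4a1 read 30540.4, 34972 and 28278 undifferentiated and 18617, 16009 and 16456 differentiated. Both genes fell without overlap, by 0.87 and 0.75 on the log2 scale (adjusted p = 0.00447 and 0.0124, limma), in the same comparison. The Col4a2 call was lost with poly-A control scaling, and also without differentiated samples 1 and 4, which left 1 differentiated sample. In that fit without differentiated samples 1 and 4 the median log2 change of the whole list was 0.03. Scaled on the hybridisation controls the list had 2 rises and 11 falls.

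**Figure D4:**
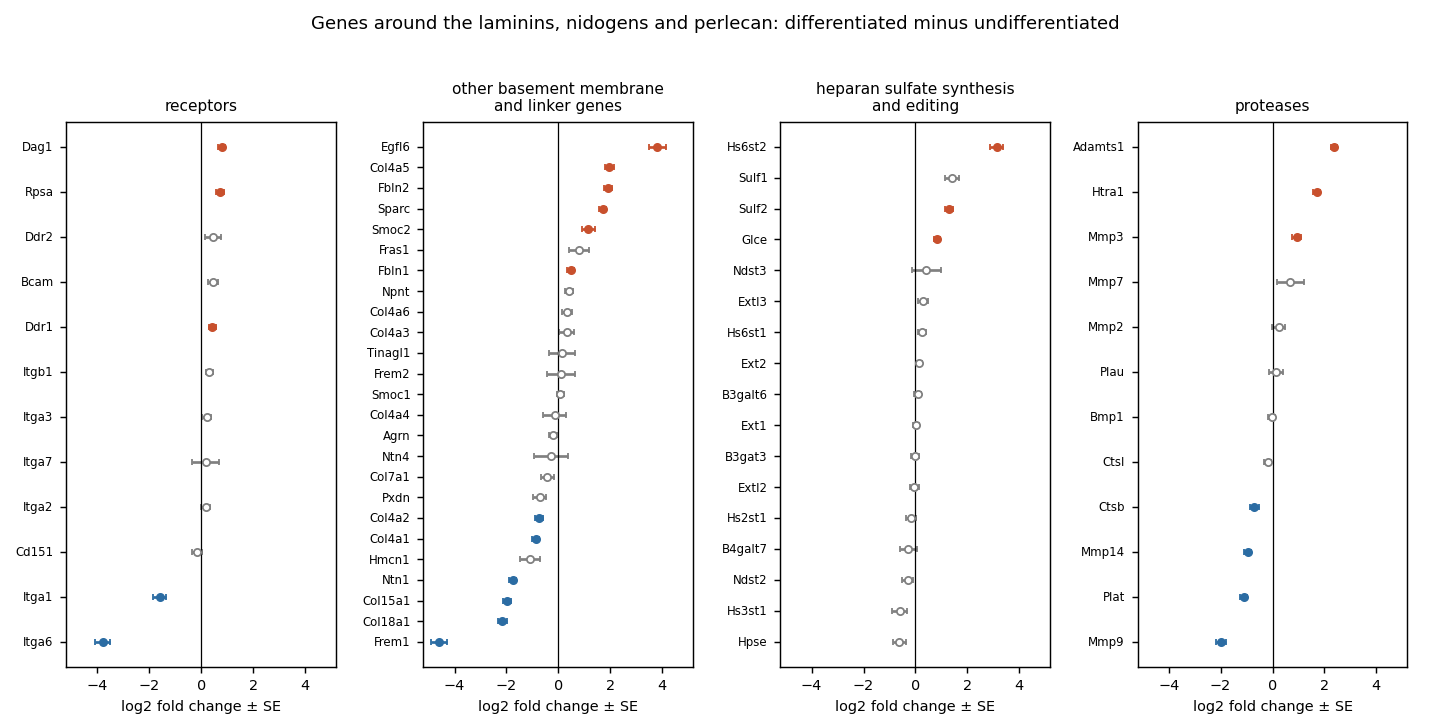
Log2 fold change ± SE (limma, n = 3 a state) of the tested genes in 4 lists: receptors, other basement membrane and linker genes, heparan sulfate synthesis and editing, and proteases; filled red rose and filled blue fell at an adjusted p under 0.05, open circles did not pass. Frem1 and Itga6 are at the low end of their panels and Egfl6 at the high end of its; changes of genes at background in 1 state depend on the offset, and scaling on the hybridisation controls moves the MOE430A points down, the chip median going to -1.07.

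Markers of other cell types also differed between the states. All 8 fibroblast markers were above background, and their summed signal ran from 248463 to 259908 undifferentiated and 348735 to 485846 differentiated. Without the fibrillar collagens Col1a1 and Col3a1 the sum ran from 129638 to 136816 and from 88200 to 115355, the opposite order. Of the 8, 3 rose, 2 fell and 3 did not pass, at a median log2 change of -0.17. Col1a1 rose by 1.54 and Pdgfra, a receptor of platelet-derived growth factor, by 1.35 (adjusted p = 0.000581 and 0.000494, limma), 0.35 and 0.17 with hybridisation control scaling. Lum, the proteoglycan lumican, fell by 1.52 and Fap, a surface protease, by 1.39 (adjusted p = 0.00039 and 0.00571, limma). Of 9 endothelial markers, 5 were above background undifferentiated and 1 differentiated, with sums of 10258 to 10387 and 5047 to 7108, and the defining markers Vwf, Tek and Flt1 were not above it in either state. Cd34, also carried by mesenchymal progenitors, fell from 6138, 5514 and 5511 to 886, 654 and 645 (adjusted p = 5.4e-05, limma), and without it the endothelial sums overlapped, at 4119.6 to 4873 and 4392 to 6223. Of the 8 endothelial markers tested, 1 rose, 3 fell and 4 did not pass. Kdr, a receptor of vascular endothelial growth factor, rose by 0.56 (adjusted p = 0.0255, limma), turning to -0.55 with hybridisation control scaling. Pecam1 fell by 1.41 without overlap (adjusted p = 0.0273, limma), with 2 undifferentiated and 0 differentiated samples above background. Of 4 pericyte markers 1, Cspg4, was above background in each state, and the sums were 2704 to 3466 and 1708 to 2032. Cspg4 fell by 1.08 (adjusted p = 0.00524, limma), without it the sums overlapped, at 825.5 to 865 and 789.6 to 932, and the list's median log2 change was 0.32. Of 3 Schwann cell markers on the chips, 1 (Sox10) was above background in both states, with sums over 2 MOE430A genes of 1190.1 to 1279 and 1851 to 2228. Sox10 rose by 0.68 (adjusted p = 0.0111, limma), turning to -0.44 with hybridisation control scaling. Leukocyte markers, 4 of 6 above background undifferentiated and 3 differentiated, summed to 4967 to 6075 and 7423 to 9761, and no adipocyte marker of 4 was above it. Of 4 leukocyte markers tested 3 rose and 0 fell, and with hybridisation control scaling 0 rose and 1 fell. Cd14 and Lyz2 rose by 0.97 and 0.94 (adjusted p = 0.00495 and 0.032, limma), turning to -0.15 and -0.21 with that scaling. The part of these cell types in the changes of Lama4, Lama2 and Hspg2 was not tested. Ratios of 3' to 5' Gapdh probe signal, a sign of RNA quality, were 0.831 to 0.877 undifferentiated and 0.744 to 0.993 differentiated on MOE430A.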

How the data were processed

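Total RNA was prepared with TRIzol, labelled with biotin and hybridised to MOE430A and MOE430B, per the labels' protocols. Each deposited value is the signal intensity (linear scale) of 1 probe set on 1 array, made by the authors with MAS5 per the submitters' processing notes, which name no version. The trimmed mean, with 2% taken from either tail, is 1500.5 for every MOE430A array and 1500.2 for every MOE430B array. The number of arrays limits the precision.

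Symbols came from the platform tables: of 22690 MOE430A probe sets, 20393 had 1 gene (20364 matched in RefSeq GRCm38.p6), 691 several and 1606 none, and of 22575 on MOE430B 14674 (14499 matched), 245 and 7656. In R 4.3.3 with limma 3.58.1, an offset of 75 units (5% of the trimmed mean) was added, log2 taken, and probe sets with a mean under 300 (20%) and the 64 controls of each chip were left out. lmFit and eBayes compared the states on 15939 and 17915 probe sets, each chip apart, without covariates, two-sided, with Benjamini-Hochberg adjustment over the chip. All adjusted p-values of genes are from this test. Fold changes of dim genes are understated by the offset. Where all 3 values of a state lay under background they were raised to it, and the fold is a lower bound. The script was tested on simulated data. Tables and figures used Python 3.11.15, pandas 2.3.3 and matplotlib 3.10.9.

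All 20 probe sets of the members are accounted for. From each list, up to 2 largest rises and 2 largest falls with states that do not overlap were named, and other names are marked. The members, lists and alternatives were chosen with earlier results of these data known, and the background from the trpn controls was set with values in view. Alternatives were other scalings, offsets, filters, priors and blocks, and leaving out samples; those for the lists and the ratios were added after seeing the data.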

Additional observations from a re-analysis of the deposited data

How the results depend on the processing

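Of 17 tested members, 7 were called. The count was 7 with values as deposited, 8 with quantile normalization (6 higher, 2 lower) and 6 with hybridisation control scaling (0 higher, 6 lower). It was 4 with poly-A control scaling and 9 with a trend and robust prior. With 1 sample left out it was 4 to 6, lowest without undifferentiated sample 2 or 4. Leaving out differentiated samples 1 and 4 left 1 differentiated sample, so no count is given. The members' median log2 change was then 0.46, beside 0.36 with all samples. On MOE430A the chip's 4550 calls became 11184 (2.08% higher) with hybridisation and 2514 with poly-A control scaling, 2384 without differentiated samples 1 and 4, and 2760 to 3823 with 1 sample left out. On MOE430B the 328 calls became 1512 (2.25% higher, 39% in the fit reported) with hybridisation and 168 with poly-A control scaling. With 1 sample left out these calls numbered 39 to 146. They became 838 with a trend and robust prior, 58 with the scan session as a block (which held undifferentiated sample 1 alone) and 624 with values raised to background. Hybridisation control scaling reversed Hspg2 (-0.38 and -0.37), Nid2 (-0.97), Lamc1 1423886_at (-0.37), Lamb1 (-1.01, -1.11 and -0.63) and Nid1 1448469_at (-1.08), and took 5 others that were uncalled either way below 0: Lama5 (-0.65 and -0.66), Lamb2 (-0.73), Lamc1 1423885_at (-0.79) and Lamb1 1446180_at (-0.80). Nid1 1416808_at gained a call under 6 of 19 alternatives. The cause was not tested. Deviations of same-numbered samples correlated at -0.02 to 0.04 on MOE430A and -0.02 to 0.05 on MOE430B. These values cannot decide whether same-numbered samples share an origin, since differences between arrays can hide it, and the labels do not say. With the replicate block 5 members (5 higher, 0 lower) and 3563 MOE430A probe sets were called, and 0 on MOE430B (2505 at an unadjusted p under 0.05, limma); Lama2 and Lamb1 1451241_at missed the threshold. Without the offset the 7 ratio shifts ran from 0.33 to 2.55. Signal over background limits Lamb3, Lama5 1427010_s_at and all 3 MOE430B members.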

Other observations

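Heparan sulfate chains are what perlecan carries, and the genes that build and edit them were measured on the same arrays. Of 20 listed genes 17 were tested, of which 3 rose and 0 fell in limma, beside 28.1% of genes called on MOE430A and 18.5% over both chips. With hybridisation control scaling 1 rose and 11 fell. Hs6st2, which adds sulfate at the 6 position, read 202, 289.3 and 166 undifferentiated, all under background, and 1692, 3129.99 and 2808 differentiated, at least 4.26-fold higher (adjusted p = 0.000277, limma). Sulf2, an extracellular enzyme that removes such sulfate, read 2166, 2394 and 1917 against 5085, 4995 and 6127, a log2 change of 1.29 ± 0.15 (adjusted p = 0.00104, limma), 0.13 with hybridisation control scaling. Glce, the epimerase of the chain, named after its values were seen, was the third, at 0.82 on the log2 scale (adjusted p = 0.00253, limma), or -0.34 with hybridisation control scaling. The chain polymerases Ext1 and Ext2 did not pass.

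Of 12 tested proteases that cut laminin, nidogen or perlecan, 3 rose and 4 fell, beside the same 28.1% of genes on MOE430A and 18.5% over both chips. Adamts1 read 3801, 3496 and 3497 undifferentiated and 18891, 17939 and 19854 differentiated, 5.25-fold higher (log2 change 2.37 ± 0.12, adjusted p = 4.13e-05, limma). Htra1, a secreted serine protease, rose by 1.70 ± 0.14 (adjusted p = 0.000237). Mmp9, a gelatinase, fell from 3821, 3771 and 2540.2 to 701, 881 and 752 (adjusted p = 0.000501, limma), and Plat, tissue plasminogen activator, fell by 1.11 on the log2 scale (adjusted p = 0.00134). Mmp3 also rose, and Mmp14 and Ctsb also fell, all 3 named after their values were seen. The Mmp3 call was lost without differentiated samples 1 and 4, which left 1 differentiated sample. Its change turned to -0.26 with hybridisation control scaling. The Ctsb call was lost without any 1 sample except differentiated sample 1. Scaled on the hybridisation controls, 1 protease rose and 8 fell.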
